A study of Mus musculus with 7 samples.

Results

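The 10 genes Jak1, Jak2, Stat3, Stat5a, Stat5b, Socs1, Socs2, Socs3, Cish and Pim1 were examined in megakaryocyte-erythroid progenitors, the bone marrow cells from which platelets and red blood cells descend. The set was taken as every probe that the array annotation gives to these genes, which is 16 of 25697 probes. Of these, 11 probes of 8 genes were detected on at least 3 of the 7 arrays and were tested, among 7547 genes tested in all. The probes of Stat5b and Socs3 were detected on none of the 7 arrays.

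The study compared female C57BL/6 mice lacking both Ssb1 and Ssb2, single-stranded DNA binding proteins of the DNA damage response, with wild-type controls. Cells had been sorted as lineage-low, c-Kit positive and Sca-1 negative with low CD34 and CD16/32, and RNA was hybridised to single-colour Illumina bead arrays. There were 3 double knockout arrays and 4 control arrays. The labels give no age, no treatment and no account of how or in which cells the genes were deleted, and they do not say whether cells of several animals were pooled. Nothing in them says that the arrays of a group came from separate animals, so p-values measure the spread between these samples, which may be technical. In such bulk samples, fewer cells of a type and less RNA per cell cannot be told apart.

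JAK-STAT signalling carries the message of cytokines from the cell surface to the nucleus. A receptor such as that for erythropoietin brings Janus kinases together, the kinases phosphorylate STAT factors, and paired STAT factors enter the nucleus and bind DNA. In erythroid cells the erythropoietin receptor acts through Jak2 and Stat5, which support survival and maturation. STAT5 also induces Cish and SOCS genes, whose proteins bind the receptor or the kinase and shut the signal down, so their transcripts are widely read as a mark of recent signalling.

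Each array's values were background-corrected, quantile-normalized and put on a log2 scale, so a change is measured against the bulk of the genes. The knockout arrays were brighter before normalization, with a mean signal of 660 ± 9.60 (SD, n = 3) against 515 ± 75.2 (SD, n = 4), which gave p = 0.0571 (exact permutation test, two-sided, lowest possible value 0.0286). The dimmest knockout array, at 651, was brighter than the brightest control array, at 615. The brighter Nabp2 (Ssb1) probe was lower in the knockout by a log2 change of -2.04 (limma adjusted p = 0.000203). The dimmer Nabp2 probe was at -0.95 (limma adjusted p over the tested probes = 0.00790). Both Nabp2 probes were still detected on all 3 knockout arrays, and the Nabp1 (Ssb2) probe was detected on none of the arrays. Of 8 markers of these progenitors, 7 had a probe and all 7 were detected on every array, among them Gata1, Klf1 and Epor, while Kit had no annotated probe. In the main fit 1 of these 7 rose and 0 fell. Gata2 rose by 1.60 (adjusted p = 0.000812). Gata1 at -0.48 (adjusted p = 0.0524) and Klf1 at -0.32 (adjusted p = 0.0522) did not pass the threshold. Their groups did not overlap, as for 38.5% of all genes. Falls numbered 2 without background correction, with an offset of 50, with robust fitting and with detection p under 0.01 on all arrays. The authors' processed values also gave 2, as did scaling to the median of detected probes. Falls numbered 1 without a detection filter or without control array 1, and 0 in the other settings, including each other array left out. Of the 20 genes listed for the interferon response 16 were tested and 16 rose, with a median log2 change of 2.53. Deposited signals before any correction, background included, were also summed over all probes of the 19 annotated genes, tested or not. The sum was 56638.5 to 67655.2 on knockout arrays against 16146.9 to 23861.2 on control arrays. Of 10 B-lineage markers, 6 were tested and 6 fell (median -2.43), with Cd79a detected on no knockout array and Pax5 and Blnk on none at all. The same uncorrected sum over the 8 annotated B-lineage markers, undetected probes and background included, was 1487.5 to 1575.4 against 2079.1 to 2669.1. Beside each count of markers and interferon genes given here stand 14.4% rising and 12.8% falling among all genes tested. Of the 7 tested neutrophil and monocyte markers 3 rose and 1 fell, of 5 megakaryocyte markers 2 rose, of 2 mast cell markers 1 rose, of 4 stem cell markers 1 rose and 2 fell, and of 2 T and NK markers neither passed the test. The part these cells play in the changes below was not tested.

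Across the set, 2 of 8 tested genes rose and 1 fell in the double knockout. Stat3 and Stat5a were higher and Pim1 was lower, whereas Jak1, Jak2, Socs1, Socs2 and Cish did not pass the threshold of 0.05 on the adjusted p. Among all genes tested, 27.2% changed, 14.4% rising and 12.8% falling, so the count of 3 among 8 is no result about the set as a whole. The median change of the 8 genes was -0.0339 on the log2 scale, beside 0.0114 over all genes. The values of the groups did not overlap for 2 of the 8 genes, Stat3 and Pim1, beside 38.5% of all genes. Counted by probe, 4 of the 11 changed, 3 of them rising, beside 26.3% of all probes tested, and 3 had groups that did not overlap, beside 37.6%. All 3 calls were lost with array brightness as a covariate, a setting that left 43 changed genes in all. Every knockout array was brighter than every control array, so brightness and group cannot be told apart in this setting. There Stat3 was at 0.65 (SE 0.232, against 0.124 in the main fit) and Stat5a at 0.67 (SE 0.266, against 0.148). Pim1 was at -0.82 (SE 0.233, against 0.122).

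**Figure D1:**
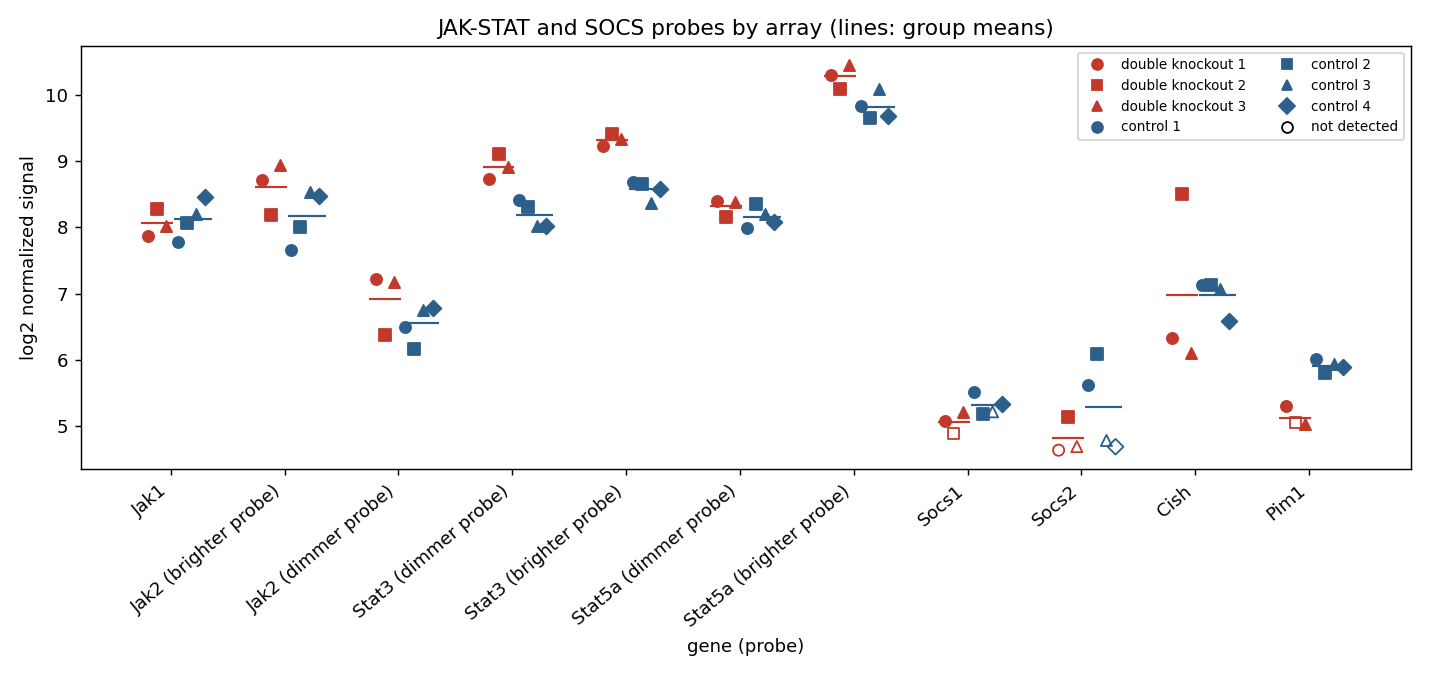
Normalized log2 signal of the 11 tested probes on each of the 7 arrays, with double knockout in red, control in blue, open symbols for values not detected and horizontal lines for group means. The groups are separate for both Stat3 probes and for Pim1, and double knockout array 2 stands apart from the other knockout arrays for Cish at 8.50.

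The kinases were examined first. Jak1, which pairs with interferon and interleukin receptors, read 7.87, 8.28 and 8.02 on the 3 knockout arrays and 7.78, 8.06, 8.20 and 8.46 on the 4 control arrays. The knockout values lay within the range of the controls. The log2 difference of Jak1 was -0.06 (SE 0.175, 95% interval -0.46 to 0.33, limma adjusted p = 0.802).

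Jak2, the kinase of the erythropoietin and thrombopoietin receptors, had a pair of tested probes. The brighter read 8.71, 8.19 and 8.93 in the knockout and 7.66, 8.01, 8.53 and 8.47 in the controls. Knockout arrays 1 and 3 lay above every control and knockout array 2 below the upper controls. The log2 difference was 0.44 (SE 0.244, 95% interval -0.10 to 0.99, limma adjusted p = 0.201). Knockout array 2 was again the lowest knockout array for the dimmer Jak2 probe, which read 7.22, 6.37 and 7.18 against 6.50, 6.17, 6.75 and 6.79, with a difference of 0.37 (SE 0.234, adjusted p over the tested probes = 0.269). A further Jak2 probe was detected on none of the arrays. Scaling each array to the median of all probes moved the median of all genes to 0.52, and there the brighter Jak2 probe was called higher at 1.10, or 0.58 relative to that median (adjusted p = 2.18e-05). In that setting every tested gene of the set had the same SE, 0.234. Its p-values therefore do not reflect the spread of each gene.

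The STAT factors carried the rises. Stat3, which relays signals of interleukin-6 type cytokines, was the gene of the set with the largest rise. Its brighter probe read 9.23, 9.41 and 9.33 on the knockout arrays and 8.68, 8.66, 8.37 and 8.58 on the control arrays. Each knockout array lay above every control. The mean was 9.32 ± 0.0889 (SD, n = 3) in the knockout and 8.57 ± 0.141 (SD, n = 4) in controls, a 1.68-fold rise (log2 0.75, SE 0.124, limma adjusted p = 0.00360). The next Stat3 probe gave 8.73, 9.11 and 8.90 against 8.41, 8.30, 8.01 and 8.02, a rise of 0.73 (SE 0.153, adjusted p over the tested probes = 0.0102), again without overlap. The remaining Stat3 probe was detected on knockout array 1 alone, at 5.35, and was not tested. The Stat3 call was kept whichever array was left out (adjusted p 0.00562 to 0.0199) and was lost with array brightness as a covariate (log2 change 0.65, adjusted p = 0.282).

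Stat5a, with Stat5b the main STAT factor downstream of the erythropoietin receptor, rose by a smaller amount. Its brighter probe read 10.29, 10.08 and 10.44 in the knockout and 9.83, 9.65, 10.09 and 9.68 in controls. The groups met at knockout array 2 and control array 3. The rise was 1.38-fold (log2 0.46, SE 0.148, 95% interval 0.13 to 0.80, limma adjusted p = 0.0448). The dimmer Stat5a probe read 8.40, 8.16 and 8.38 against 7.99, 8.35, 8.20 and 8.08 and did not pass the test, at 0.16 (SE 0.135, 95% interval -0.15 to 0.46, adjusted p over the tested probes = 0.420). The call lay close to the threshold: without knockout array 1 or 3 or control array 1, 2 or 4 the adjusted p was between 0.0677 and 0.167, and with the mean of both probes it was 0.09997 at a change of 0.31. The Stat5b probe read 4.35 to 4.58 over the 7 arrays, with detection p of at least 0.383, and allows no comparison. Stat5a and Stat5b are close paralogs on chromosome 11, and what each probe binds is uncertain, since probe sequences were not used here.

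**Figure D2:**
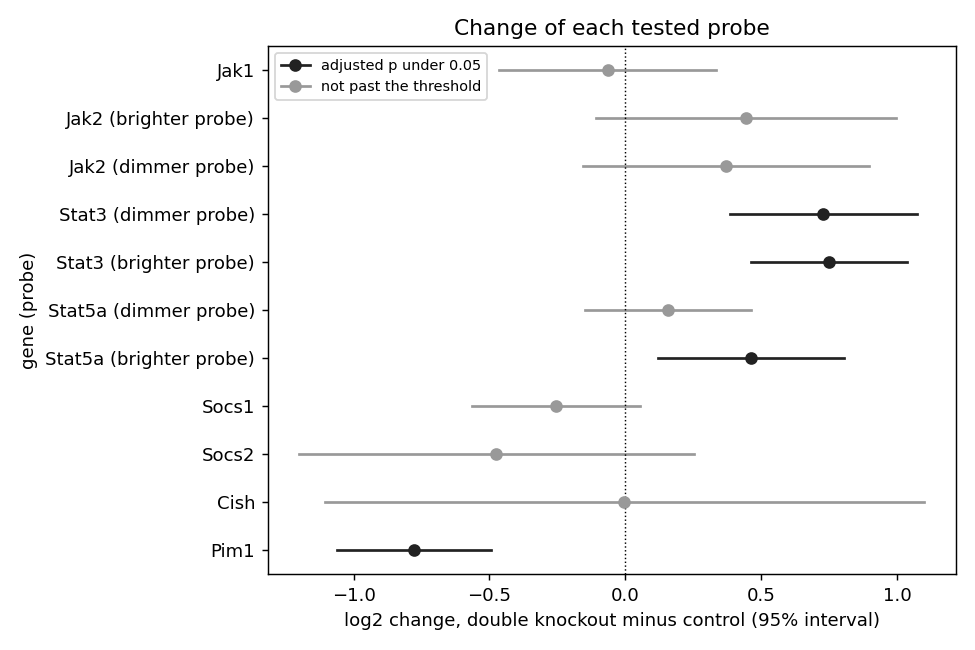
Log2 change of each of the 11 tested probes, double knockout minus control, with 95% intervals and black for adjusted p under 0.05 over the tested probes. Both Stat3 probes and the brighter Stat5a probe lie to the right of 0, Pim1 lies to the left, and the interval of Cish spans -1.11 to 1.10.

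The feedback inhibitors were then examined, beginning with the DNA that STAT factors could read. STAT factors bind a palindrome, TTCNNNGAA, which reads alike on both strands, and interferon regulatory factors bind repeats whose core is GAAA, 2 bases of any kind and again GAAA, searched on both strands. The search covered RefSeq windows of GRCm38.p6 from 250 bases before to 50 after each annotated gene start. Windows were found for 9 of the 10 genes, all except Socs2, 12 windows in all. TTCNNNGAA was present in 2 of the 12 windows, those of Cish and Socs3, and in 8.30% of all 32851 windows. This GAAA repeat was present in 1 of the 12, that of Socs1, in 3.44% of all windows and in 10 of 18 windows of the interferon genes. The sequences are shown because these are the only matches in the set, with matched bases in capitals, 5′ to 3′ on the strand of the gene. For Cish the 30 bases over both matches are given, which begin 1 and 12 bases into the annotated transcript, and for Socs1 and Socs3 the 250 bases before the start.
Cish, chr9:107296654-107296683, plus strand: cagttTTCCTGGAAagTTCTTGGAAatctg
Socs1, chr16:10785537-10785786, minus strand: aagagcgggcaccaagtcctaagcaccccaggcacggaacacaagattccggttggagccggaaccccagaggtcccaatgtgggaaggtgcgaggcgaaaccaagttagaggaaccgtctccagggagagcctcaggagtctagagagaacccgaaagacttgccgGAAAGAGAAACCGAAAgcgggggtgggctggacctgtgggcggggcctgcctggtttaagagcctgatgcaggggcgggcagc
Socs3, chr11:117969367-117969616, minus strand: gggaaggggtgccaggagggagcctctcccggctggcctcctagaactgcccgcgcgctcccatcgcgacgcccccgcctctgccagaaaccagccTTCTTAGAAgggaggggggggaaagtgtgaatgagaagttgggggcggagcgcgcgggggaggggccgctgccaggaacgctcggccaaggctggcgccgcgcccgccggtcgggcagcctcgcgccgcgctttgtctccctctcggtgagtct
In Socs1 the capitals hold a pair of overlapping matches that begin at positions -83 and -77 relative to the start, and the match in Socs3 begins at position -154. The other windows held neither motif, and a match or its absence is a description of these letters alone.

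Cish, the inhibitor that docks on the erythropoietin receptor and carries 2 of the 3 STAT palindromes shown above, did not differ between the group means but varied widely among knockout arrays. It read 6.33, 8.50 and 6.10 in the knockout and 7.13, 7.14, 7.07 and 6.59 in controls. Knockout array 2 was above every control and knockout arrays 1 and 3 were below every control. The deposited signals before any correction were 225.6, 552.9 and 204.8 against 211.7, 201.6, 191 and 222.1. There knockout array 2 again stood above every control, but knockout array 1 also lay just above the controls and knockout array 3 within their range. The standard deviation of Cish was 1.32 in the knockout and 0.264 in controls, and its knockout value ranked 4th among the 7547 genes tested. The group difference was -0.00307 on the log2 scale (SE 0.490, 95% interval -1.10 to 1.10, limma adjusted p = 0.997). That result rests on knockout array 2: without it Cish was at -0.76 and passed the threshold (adjusted p = 0.0281).

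Knockout array 2 was the highest of the 3 knockout arrays for 44.8% of all genes and the lowest for 32.2%. Its excess over the next knockout array was 2.17 for Cish, the 2nd largest of the 7547 genes after Lyplal1 at 2.34. Among the 14 tested STAT5 targets outside the set, it was the highest knockout array for 7 and the lowest for 5, which is near the share among all genes. Podxl, a sialomucin of the cell surface, read 5.03, 6.42 and 4.90 on the knockout arrays and 5.26 to 5.78 on the controls. Erfe, the erythroid hormone that lowers hepcidin, read 4.63, 5.87 and 4.92, with detection on knockout array 2 alone of the 3, against 4.65 to 5.30. Knockout array 2 was above every control for both, and both were picked out after their values were seen. Pim3, Ccnd2, Ccnd3, Bcl2 and Osm were also highest on that array among the knockout arrays, whereas Tfrc, Ireb2, Mcl1, Myc and Bcl6 were lowest there. Myc and Bcl6 read 5.38 and 4.80 there, against 6.32 or more and 5.81 or more on the other knockout arrays.

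**Figure D3:**
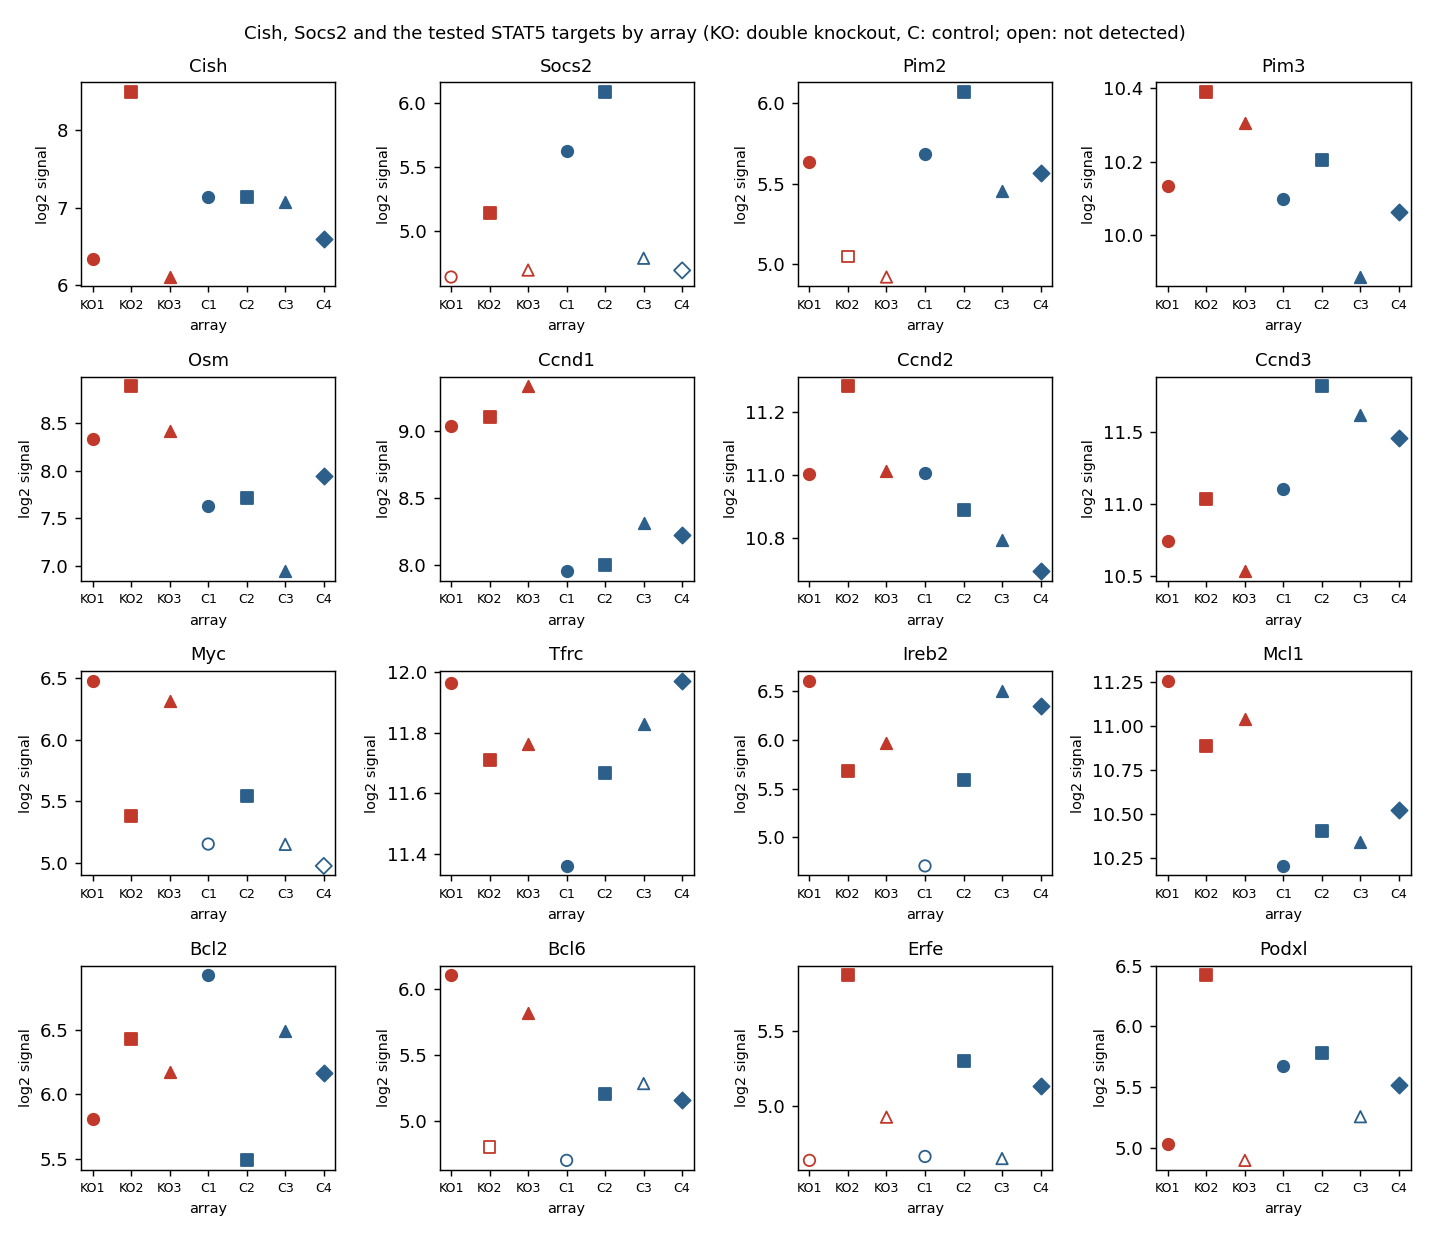
Normalized log2 signal of Cish, Socs2 and the 14 tested STAT5 targets on each array, with double knockout in red, control in blue and open symbols for values not detected. Vertical scales differ between panels. Knockout array 2 is the highest knockout array for Cish, Socs2 and 7 of the 14 targets, among them Podxl and Erfe. It is the lowest for 5 targets, among them Myc and Bcl6.

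Socs2, which restrains growth hormone and other STAT5 signals, lay near background. It read 4.64, 5.14 and 4.70 in the knockout, detected on array 2 alone, and 5.63, 6.09, 4.79 and 4.69 in controls, detected on arrays 1 and 2. The controls were split between a higher and a lower pair and the groups overlapped. The log2 difference was -0.47 (SE 0.322, 95% interval -1.20 to 0.25, limma adjusted p = 0.297).

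Socs1, a direct inhibitor of Janus kinases that interferon induces, read 5.08, 4.89 and 5.21 in the knockout and 5.51, 5.19, 5.22 and 5.34 in controls. It was detected on 2 of 3 knockout and 3 of 4 control arrays, and knockout array 3 overlapped the controls. The difference of Socs1 was -0.26 (SE 0.134, 95% interval -0.56 to 0.04, limma adjusted p = 0.182). The 16 tested interferon genes, by contrast with these values, rose by 0.50 to 4.25 on the log2 scale. Median scaling over detected probes, those found on every array, moved the median of all genes to -0.14, and there Socs1 was called lower at -0.74 (adjusted p = 0.00752) and Socs2 at -1.02 (adjusted p = 0.0354). The Socs3 probe, for the inhibitor of interleukin-6 type signals, read 4.38 to 4.86 and was detected on none of the arrays.

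Pim1, a survival kinase and classical STAT target, was the gene of the set that fell. It read 5.31, 5.05 and 5.04 on the knockout arrays and 6.01, 5.80, 5.94 and 5.90 on the control arrays. Each knockout array lay below every control. The mean was 5.13 ± 0.154 (SD, n = 3) against 5.91 ± 0.0883 (SD, n = 4), 1.72-fold lower (log2 -0.78, SE 0.122, limma adjusted p = 0.00293). The signal was weak, with detection on 2 of 3 knockout and 4 of 4 control arrays, and the uncorrected signals of 164.7, 146.5 and 152.1 in the knockout overlapped those of 159.1, 144.8, 148.7 and 182.3 in controls. The median undetected probe, a measure of background, read 128.6 to 133.2 on knockout arrays and 116.4 to 133.3 on control arrays. The size of the Pim1 change moved from -0.24 without background correction (adjusted p = 0.0348) to -1.13 under scaling to the median of detected probes (adjusted p = 0.000917), and under scaling to the median of all probes the call was lost at -0.47 (adjusted p = 0.0801). Another Pim1 probe was detected on knockout array 2 alone, at 5.29, and was not tested.

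By the mean absolute difference of log2 values from each gene's control mean over the 7 arrays, the genes most like Stat3 were Cmtr2 at 0.0375, Tgif1 at 0.0580 and Pcgf6 at 0.0642. Those most like Pim1 were Sergef at 0.0554, Trappc1 at 0.0730 and Dek at 0.0742.

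**Figure D4:**
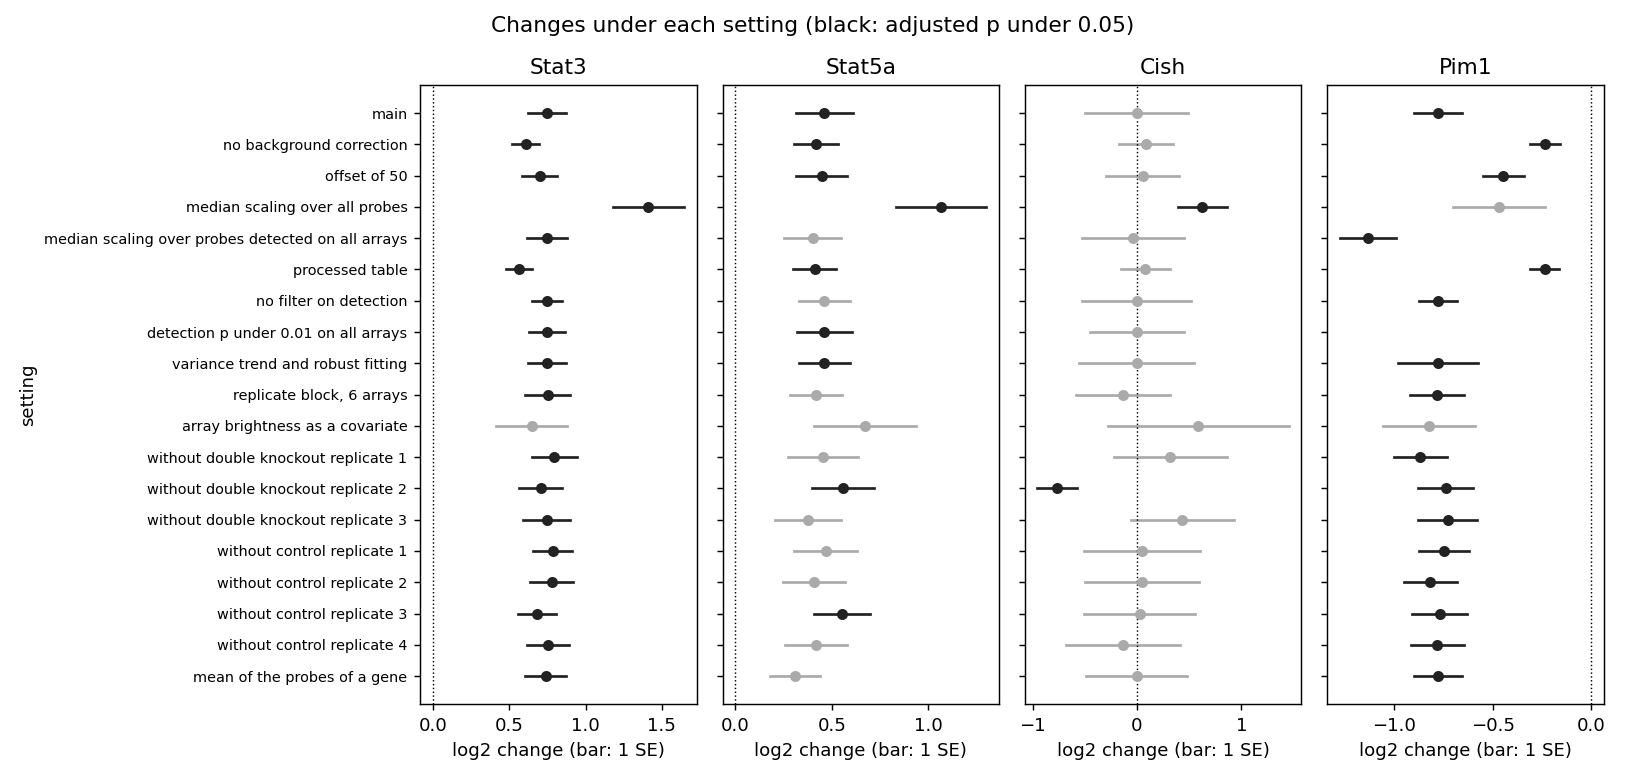
Log2 change of Stat3, Stat5a, Cish and Pim1 under the fit reported here (main), the other settings and each array left out, with bars of 1 SE and black for adjusted p under 0.05. Stat3 stays to the right of 0 and Pim1 to the left throughout, whereas Cish changes sign and is called lower without knockout array 2.

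The genes around the set were described from lists of receptors, other kinases and STAT factors, inhibitors, adaptors and targets. Each count below stands beside 14.4% rising and 12.8% falling among all genes tested, whose median change was 0.0114. No list was tested as a whole. With array brightness as a covariate 1 cytokine receptor fell and 1 of the other brakes rose. In that setting no gene of the other JAK and STAT, SOCS, adaptor, STAT5 target or STAT3 target lists was called. Among cytokine receptors, 1 of 10 tested rose and 2 fell, with a median of 0.0658. Epor, the erythropoietin receptor itself, differed by 0.03 (SE 0.121, limma adjusted p = 0.877). Il31ra, a subunit of the interleukin-31 receptor, fell by 2.07 (adjusted p = 0.000297). Il7r, a receptor of lymphoid progenitors, was detected on no knockout array and was at least 1.59-fold lower there (adjusted p = 0.00932), beside the fall of the B-lineage markers. Il3ra, the interleukin-3 receptor alpha chain, rose by 0.79 (adjusted p = 0.0153), or by 0.50 with values raised to each array's lowest detected signal, and its call was lost without knockout array 2 (adjusted p = 0.0551).

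Of 4 other JAK and STAT genes tested, 1 rose, with a list median of 0.35. This was Stat2, which acts in the response to type I interferon and is itself a gene of the interferon list. It rose by 1.60 (SE 0.335, adjusted p = 0.00919), or 1.23 with values raised to the lowest detected signal. Stat6 differed by 0.00196 (adjusted p = 0.991) and Tyk2 by -0.22 (adjusted p = 0.212), both named after their values were seen.

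Among 7 tested genes of the other SOCS proteins and the ligase they recruit, 3 rose and 0 fell, with a median of 0.27. Socs5 rose by 0.91 (SE 0.147, limma adjusted p = 0.00330) and kept its call whichever array was left out, but lost it with array brightness as a covariate. Socs6 rose by 0.63 (adjusted p = 0.0315), and the call was lost without knockout array 1 or 3 or control array 1 or 2 (adjusted p 0.0506 to 0.118). Socs7, undetected on all 4 control arrays, was higher by at least 1.33-fold (adjusted p = 0.0254), a call lost without knockout array 2 or 3 or control array 3 or 4 (adjusted p 0.0513 to 0.0961). Under median scaling over detected probes 1 of the 7 rose, and over all probes 5.

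Of 9 tested genes listed as other brakes on the pathway, 4 rose and 1 fell, with a median of 0.30. The 4 include Ptpn11, which is not mainly a brake. Usp18, which also blocks the type I interferon receptor, rose by 3.11 (limma adjusted p = 2.21e-05) and is itself a gene of the interferon list. The phosphatase Ptprc (CD45) rose by 0.75 (adjusted p = 0.00980), or by 0.32 with values raised to the lowest detected signal. Ptpn11, a phosphatase that mostly promotes signalling, rose by 0.45 (adjusted p = 0.0184), and the phosphatase Ptpn1 was at -0.54 (adjusted p = 0.0267). Both calls were lost without knockout array 2 or 3 (adjusted p 0.0550 to 0.104), and Ptpn1 was at 0.14 under median scaling over all probes. Pias2, a STAT-binding SUMO ligase, was detected on 1 control array. It rose by 0.62 (adjusted p = 0.0281), or by 0.32 with values raised to the lowest detected signal. The Pias2 call was lost without any knockout array and without control array 2 or 3 (adjusted p 0.0531 to 0.0889). Under median scaling over detected probes 1 of the 9 rose and 1 fell, and over all probes 8 rose and 0 fell.

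Of 10 adaptors 2 rose, with a median of 0.36. Sh2b1, which binds Jak2, rose by 0.47 (limma adjusted p = 0.0348), and Grb2, which links receptors to Ras, was at 0.44 (adjusted p = 0.0429) but was detected on no control array and has no bound above 1-fold. Both calls were lost without any knockout array and without control array 3, with Sh2b1 also losing it without control array 4 and Grb2 without control array 2 (adjusted p 0.0602 to 0.136), and Grb2 was at -0.14 under median scaling over detected probes.

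Of 14 tested STAT5 targets outside the set 4 rose and 1 fell, beside 14.4% and 12.8% of all genes, with a median of 0.23. Ccnd1, which encodes cyclin D1, rose 2.05-fold (log2 1.03, SE 0.139, limma adjusted p = 0.00150) and the survival protein Mcl1 rose by 0.70 (adjusted p = 0.00669). Both kept their calls whichever array was left out and lost them with array brightness as a covariate. The cytokine oncostatin M (Osm) rose by 0.99 (adjusted p = 0.0153), a call lost without knockout array 2 (adjusted p = 0.0557). Myc rose by 0.85 (adjusted p = 0.0346), or by 0.72 with values raised to the lowest detected signal, and its call was lost without knockout array 1 or 3 or control array 1, 3 or 4 (adjusted p 0.0641 to 0.131). Ccnd3, the D-type cyclin of red cell precursors, was at -0.73 (adjusted p = 0.0206), and its call did not survive leaving out knockout array 1 or 3 (adjusted p 0.0656 to 0.0863), nor was it kept under median scaling over all probes (-0.27, adjusted p = 0.339). Pim2 and Pim3, the paralogs of Pim1, differed by -0.49 (adjusted p = 0.102) and 0.21 (adjusted p = 0.233). All 3 probes of Bcl2l1, the survival gene most closely tied to STAT5 in erythroid cells, were undetected on every array. Under median scaling over all probes 8 of the 14 rose and 0 fell, and over detected probes 3 rose and 2 fell.

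Of 5 tested STAT3 targets, 4 rose and 0 fell, with a median of 1.08. Fos and Junb, subunits of the AP-1 transcription factor, rose by 1.85 (SE 0.401, limma adjusted p = 0.0106) and 1.12 (SE 0.194, adjusted p = 0.00440). The growth factor Vegfa rose by 1.08 (SE 0.265, adjusted p = 0.0165), although its call was lost without any knockout array (adjusted p 0.0501 to 0.0544). Gadd45g, a stress-induced growth inhibitor, rose by 0.79 (adjusted p = 0.0119), a call lost without knockout array 1 (adjusted p = 0.0523). These genes answer to many signals besides Stat3, and 5 members of the list were not tested. Of them Bcl3, Timp1 and Hgf were detected on none of the arrays, Lrg1 on 2, and Cebpd had no annotated probe.

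**Figure D5:**
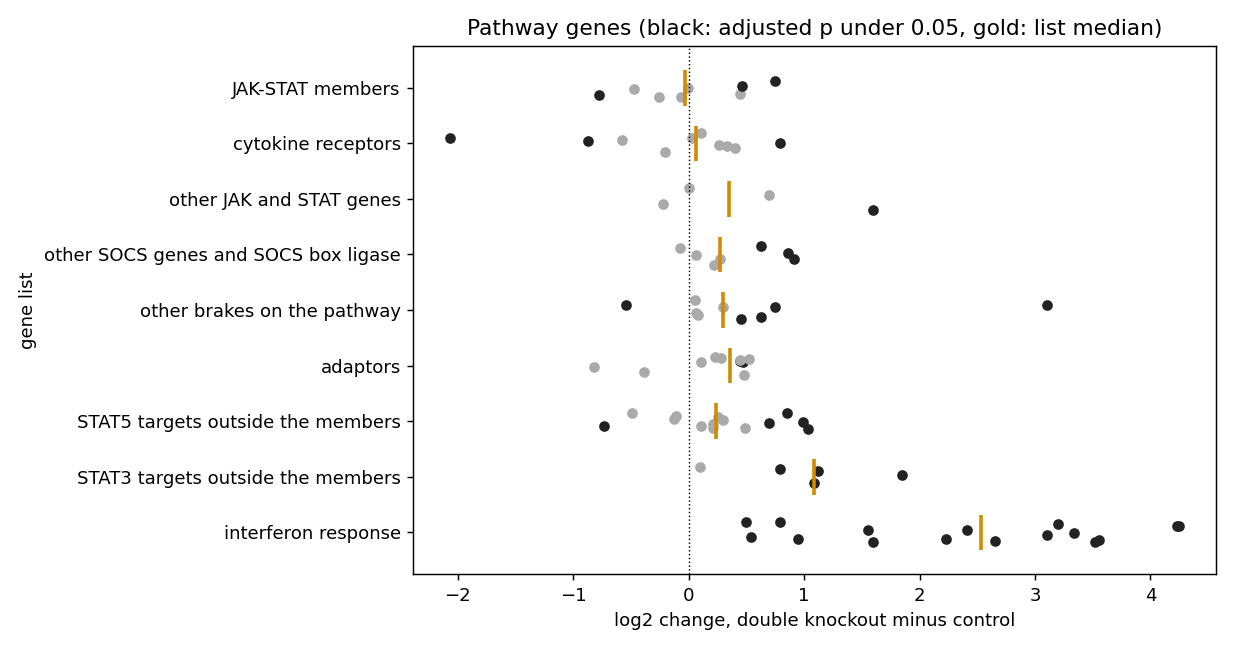
Log2 change of every tested gene of the set and of the lists around it, double knockout minus control, with black for adjusted p under 0.05 over all genes tested and a gold line at the median of each list. Medians run from -0.0339 for the set to 2.53 for the interferon response.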

How the data were processed

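The authors deposited non-normalized signals, each probe's linear intensity. Each deposited signal has a detection p-value. A processed log2 table, likewise deposited, served as an alternative. Set against the signals it matched quantile-normalized log2 values centred per probe (median correlation per probe 0.999964, slope of group differences 0.958, column medians 0.00164 to 0.00513). Its direction was that of the signals and its baseline remains unknown. GenomeStudio was used, per the submitters' processing notes, which name no version.

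Signals were normalized with neqc in limma 3.58.1 (R 4.3.3) with an offset of 16. Probes with detection p under 0.05 on 3 or more arrays were tested, 10723 in number.  A gene was represented by its tested probe with the highest mean. Of 25697 probes 23978 had 1 symbol, 0 had several and 1719 had none. All 10 gene IDs of the set were found in the gene table of GRCm38.p6. Groups were compared with lmFit and eBayes, two-sided, with Benjamini-Hochberg adjustment over 7547 genes, or over the tested probes where stated, and a threshold of 0.05. For a gene undetected in a whole group, the bound sets the bright mean against the dim group's values raised to each array's lowest detected signal. The fit was tested on simulated data with 200 changed genes in each of 10 runs. It recovered 23.1% of log2 shifts of 0.5, 78.4% of shifts of 1 and 98.2% of shifts of 2, and 5.11% of calls were false. Shifts of 0.5 were mostly missed there, so a gene that was not called may still differ. The simulation changed far fewer genes than the 2051 called in the data, so its recovery rates may not carry over.

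The genes of the set, the lists and the tests were chosen with earlier results of these data known. Every gene of the set was named, and from each other pathway list the genes past the threshold, at most 6 by size of change. Markers, interferon and targeted genes are given mostly as counts. The list of STAT5 targets and the other lists were written from general knowledge of the pathway. The alternatives were no background correction, an offset of 50, both median scalings, the processed table, no filter, detection p under 0.01 on all arrays, robust fitting with a variance trend, averaging the probes of each gene, the replicate number as a block, array brightness as a covariate, and each array left out. The number of arrays limits the precision.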

Additional observations from a re-analysis of the deposited data

Results flagged for a closer look

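Among the 16 probes of the set, 1 had a control array far from the other 3. Cish on control array 4 read 6.59 against 7.07 to 7.14 on the others. The gap was 0.878 of the range of the controls, above Dixon's 95% limit for 4 samples. Chance alone sets off this rule in about 1 of 20 groups. Control array 4 was also the brightest control, with a mean signal of 615, and its part in the value was not tested.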

How the results depend on the processing

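Stat3 kept its direction in all 18 alternatives and its call in 17, and Pim1 kept its direction in the 17 in which it was tested and its call in 15. Stat5a kept its direction in 18 and its call in 8. Requiring detection p under 0.01 on all arrays left Socs1, Socs2 and Pim1 untested. Of all genes, 2051 changed (1086 higher, 965 lower), 3884 under median scaling over all probes (3768 and 116), 2562 under median scaling over detected probes (781 and 1781), 1355 with replicate numbers as a block, 43 with array brightness as a covariate and 1116 to 1923 with each array left out, the fewest without knockout arrays 3 and 1 (1116 and 1176). Of the genes of the set, 3 changed, against 5 under median scaling over all probes, 0 with array brightness and 2 to 4 with each array left out. Of its probes 4 changed, against 8, 0 and 3 to 4. The cause of these shifts was not tested. Median scaling over all probes shifted the median of all genes to 0.52, and with it Jak1 to 0.61 and Cish to 0.63, which is 0.0885 and 0.106 relative to that median. The SE there was 0.234 for every tested gene of the set, against 0.490 for Cish in the main fit. Calls in that setting thus rest on a shared spread and not on that of each gene. Jak1 turned to 0.0466 with the block, and ranged from -0.18 to 0.0466 with each array left out. Cish turned to 0.0906 without background correction, 0.0559 with an offset of 50, 0.0806 in the processed table and 0.59 with array brightness, and ranged from -0.76 to 0.44 with each array left out. Same-numbered arrays of both groups did not deviate together (correlations -0.169, -0.0160 and 0.0277 across genes), so the number was not taken as a pairing, and under the block, which uses 6 arrays, Stat5a lost its call (adjusted p = 0.0761) and no other gene of the set did. Socs1, Socs2 and Pim1 lay near background, which limits what their values can show.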
